A study of Homo sapiens with 8 samples.

Results

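The expression of 42 cell cycle and DNA replication genes was examined in HuH7 cells, a human hepatocellular carcinoma line, that had gone through OGD/R, a withdrawal of oxygen and glucose followed by their return that models ischemia and reperfusion (I/R). The genes were chosen by symbol, as 23 genes of the G1/S transition and of DNA replication and 19 genes of G2 and mitosis (G2/M), out of 15745 named genes in the table of counts. All 42 were in the table and passed the filter on low counts, as did 12910 genes in all. Wildtype HuH7 cells of both groups were held for 6 h in glucose-free DMEM at 1% oxygen and then returned to normoxia for 6 h. The cells of 4 libraries received DMSO alone (I/R+DMSO). Those of the other 4 received 20 µM ginsenoside Rk2, a saponin of steamed ginseng, dissolved in DMSO (I/R+Rk2). By the authors' methods, HuH7 cells were given DMSO or ginsenoside after the hypoxia, for the 6 h of reoxygenation. Both groups therefore went through OGD/R, and cells kept in normoxia throughout were not analysed here. A single tumor line stood for hepatocytes, and its cells divide in culture. The labels do not say whether the replicates came from separate cultures, so the p-values measure the spread between these libraries, which may be technical.

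A cell enters the cycle when cyclin D with CDK4 or CDK6, and then cyclin E with CDK2, phosphorylate the retinoblastoma protein and release E2F factors, which switch on the genes of DNA replication. In G1 the origin recognition complex, CDC6 and CDT1 load the MCM2 to MCM7 helicase onto DNA, and in S phase MCM10, the GINS complex and the sliding clamp PCNA take part in copying it, with deoxynucleotides supplied by ribonucleotide reductase and thymidylate synthase. Cyclins A and B with CDK1, the kinases PLK1 and AURKA, spindle motors and the anaphase-promoting complex then carry the cell through mitosis. Most adult hepatocytes rest outside the cycle and re-enter it when the liver regenerates, whereas hepatoma cells proliferate continuously.

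The 4 I/R+DMSO libraries held 18428485 to 21447045 counts, and the 4 I/R+Rk2 libraries 16374082 to 30310479. The markers of the line were abundant in both groups, with AFP, the fetal serum protein that hepatomas make, at 5937 ± 303 and 5940 ± 112 CPM (normalized read counts scaled to a common library size; SD, n = 4 each). ALB, which encodes albumin, was at 2288 ± 69.7 and 2306 ± 35.0 CPM. Of 10 hepatocyte markers, APOB was higher and FGB lower in I/R+Rk2 by the test described below. Among the 5 leukocyte markers, PTPRC was not in the table of counts, and CD3E and CD79A had at most 4 and 2 counts in a library. The summed counts of the list ranged between 862 and 1223 in the I/R+DMSO libraries and between 928 and 1251 in the I/R+Rk2 libraries, nearly all from CD68. CD14, a monocyte marker, had 16, 11, 13 and 24 counts in I/R+DMSO and 7, 5, 6 and 10 in I/R+Rk2 and was called lower (log2 fold change -1.25, edgeR adjusted p = 0.0430), and its part in the results below was not tested. The 13 mitochondrially encoded genes took between 10.6% and 11.1% of the counts of an I/R+DMSO library and between 9.03% and 9.63% of an I/R+Rk2 library, so that this share separated the groups in the same way as the genes below. The part of this share in the results was not tested.

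More of the 42 genes were lower in I/R+Rk2 than higher, and the changes were small. Differences were tested with edgeR's quasi-likelihood test on normalized counts of all 12910 genes, with Benjamini-Hochberg adjustment, and a gene was called at an adjusted p-value below 0.05. Of the 23 G1/S and replication genes, 13 were called lower (56.5%) and 1 higher, where 7.24% of all genes tested were called lower and 11% higher. The 19 G2/M genes held 8 called lower (42.1%) and 1 called higher. The median log2 fold change of I/R+Rk2 over I/R+DMSO was -0.21 over the G1/S genes and -0.11 over the G2/M genes, against -0.0021 over all genes tested. Of all genes tested, 935 were called lower and 1417 higher with TMM normalization, 1306 and 1246 with upper-quartile normalization, and 683 and 1642 when scaled by library size alone. In both phases the called changes stayed below 1.5-fold, except for BIRC5. Fold changes below 0 were found for 22 of the 23 G1/S genes and 12 of the 19 G2/M genes, and for 50.3% of all genes tested. The difference between the phases was not tested.

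**Figure D1:**
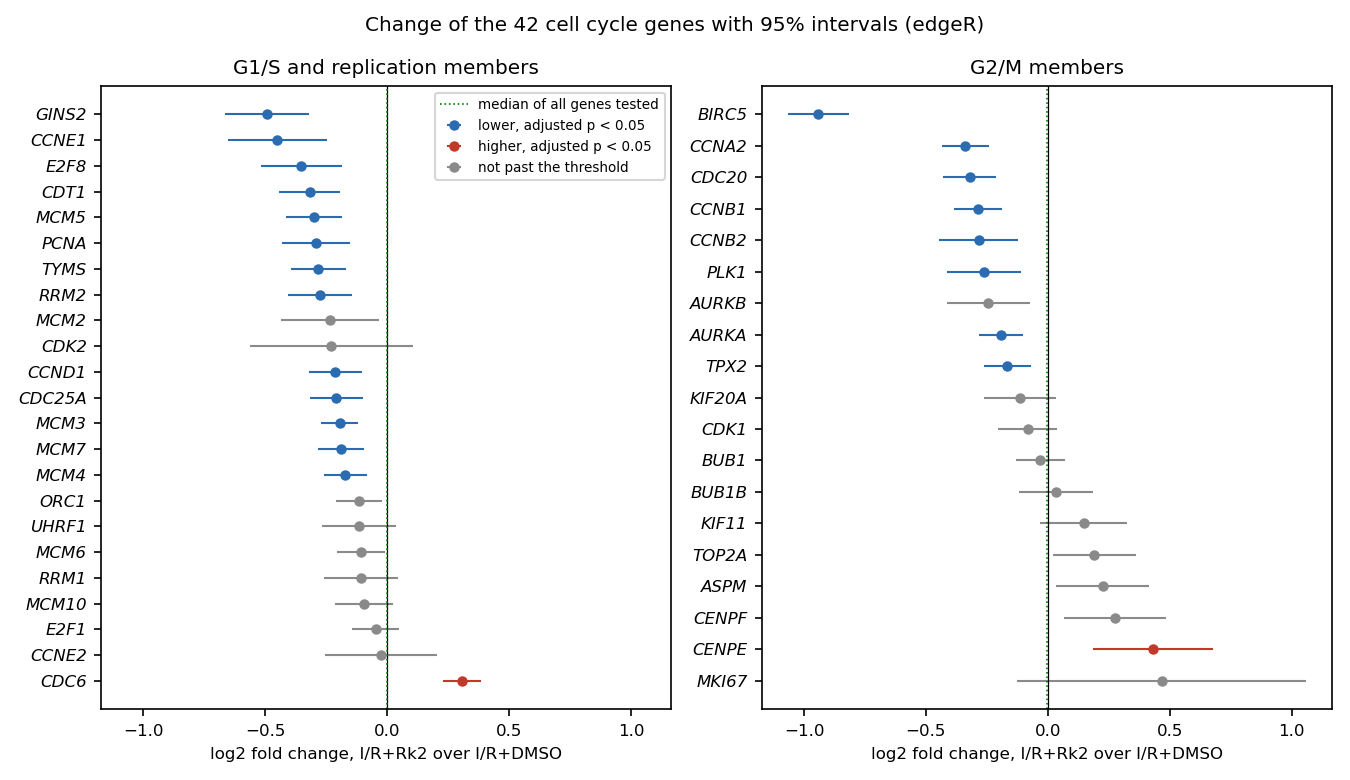
Log2 fold change of each of the 42 genes (horizontal axis, I/R+Rk2 over I/R+DMSO) with 95% intervals from edgeR, in the G1/S and replication genes (left) and the G2/M genes (right); blue and red mark genes called lower and higher, and grey marks genes not past the threshold. In the G1/S panel 22 of 23 genes lie below 0 and CDC6 above it, whereas the G2/M panel has 12 genes below and 7 above 0, with BIRC5 farthest to the left at -0.94.

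The value of every library separated the groups in most of these genes. In 15 of the 23 G1/S genes each I/R+Rk2 library was below each I/R+DMSO library, and in 1 gene each was above, where 12.9% of all genes tested did not overlap in the lower direction and 15.4% in the higher. In G2/M 9 genes did not overlap with I/R+Rk2 lower and 1 with I/R+Rk2 higher. The RNA came from whole cultures, in which fewer cells in a phase and less RNA of these genes per cell cannot be told apart.

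The promoters of the genes that carried these results are shown with the short motifs for which cell cycle genes are known. They were taken from RefSeq (GRCh38.p14), from 250 bases before to 50 after the annotated start, which covered 17 of the 23 G1/S genes and 16 of the 19 G2/M genes. Without an entry were CCND1, CCNE2, CDK2, E2F8, MCM4, MCM5, AURKA, BIRC5 and TPX2. On both strands the letters TTTCCCGC, TTTGGCGC, TTTCGCGC and TTTGCCGC (E2F-type sites, bound by E2F factors), TTTGAA (the cell cycle gene homology region, CHR, bound by the MuvB complex) and CCAAT (bound by NF-Y) were searched, and overlapping matches were counted separately. An E2F-type site was found in 12 of 17 G1/S genes (70.6%) and 1 of 16 G2/M genes (6.25%), where 3.99% of all genes with a promoter held one. The CHR letters were in 1 of 17 G1/S genes (5.88%) and 10 of 16 G2/M genes (62.5%), against 18.2% of all genes, and CCAAT was in 76.5% and 87.5% against 39.7%. A match describes the letters in this window and is not evidence of binding. For the CHR only TTTGAA was searched, so a gene without a match may still hold a variant of it. For each phase the 4 genes with the smallest p-value and a match are printed 5′ to 3′ on the strand of the gene, with matches to any of the 3 motifs on either strand in capitals. CDC6 (chr17:40287629-40287928, plus strand), GINS2 (chr16:85688905-85689204, minus strand), MCM3 (chr6:52284693-52284992, minus strand) and TYMS (chr18:657403-657702, plus strand) are of the G1/S group, and each holds at least 1 E2F-type site.
CDC6: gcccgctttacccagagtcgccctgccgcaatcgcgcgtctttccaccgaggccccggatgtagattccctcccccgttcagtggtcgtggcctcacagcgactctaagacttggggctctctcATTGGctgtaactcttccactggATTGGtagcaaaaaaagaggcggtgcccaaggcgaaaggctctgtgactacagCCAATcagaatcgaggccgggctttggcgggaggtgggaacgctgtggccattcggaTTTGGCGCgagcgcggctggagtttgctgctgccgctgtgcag
GINS2: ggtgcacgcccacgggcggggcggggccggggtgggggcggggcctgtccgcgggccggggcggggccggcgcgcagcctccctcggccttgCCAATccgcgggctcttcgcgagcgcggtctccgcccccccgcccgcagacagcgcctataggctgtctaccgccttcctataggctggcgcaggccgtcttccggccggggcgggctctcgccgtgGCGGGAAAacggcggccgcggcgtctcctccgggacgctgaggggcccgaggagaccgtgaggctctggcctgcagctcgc
MCM3: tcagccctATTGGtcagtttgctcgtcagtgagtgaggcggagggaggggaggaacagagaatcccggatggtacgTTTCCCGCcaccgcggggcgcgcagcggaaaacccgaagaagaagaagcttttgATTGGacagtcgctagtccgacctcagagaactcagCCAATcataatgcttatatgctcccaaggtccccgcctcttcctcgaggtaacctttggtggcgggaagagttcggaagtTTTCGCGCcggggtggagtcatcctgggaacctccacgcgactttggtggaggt
TYMS: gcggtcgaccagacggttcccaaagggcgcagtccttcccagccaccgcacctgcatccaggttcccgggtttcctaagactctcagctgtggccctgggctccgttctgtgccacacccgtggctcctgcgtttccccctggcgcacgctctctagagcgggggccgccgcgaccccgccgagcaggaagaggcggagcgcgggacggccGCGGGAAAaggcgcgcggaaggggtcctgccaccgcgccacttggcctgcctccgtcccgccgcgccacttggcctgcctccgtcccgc

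Of the G2/M group, CCNA2 (chr4:121823834-121824133, minus strand), CDC20 (chr1:43358731-43359030, plus strand), CCNB1 (chr5:69166900-69167199, plus strand) and CCNB2 (chr15:59104896-59105195, plus strand) are shown, and all 4 hold CCAAT letters, CDC20 and CCNB2 also those of a CHR.
CCNA2: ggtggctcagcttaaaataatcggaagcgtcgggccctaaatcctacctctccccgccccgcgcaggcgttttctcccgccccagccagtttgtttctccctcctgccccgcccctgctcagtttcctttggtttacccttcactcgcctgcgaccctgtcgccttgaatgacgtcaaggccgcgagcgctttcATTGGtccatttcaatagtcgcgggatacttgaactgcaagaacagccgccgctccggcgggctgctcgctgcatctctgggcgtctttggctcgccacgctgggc
CDC20: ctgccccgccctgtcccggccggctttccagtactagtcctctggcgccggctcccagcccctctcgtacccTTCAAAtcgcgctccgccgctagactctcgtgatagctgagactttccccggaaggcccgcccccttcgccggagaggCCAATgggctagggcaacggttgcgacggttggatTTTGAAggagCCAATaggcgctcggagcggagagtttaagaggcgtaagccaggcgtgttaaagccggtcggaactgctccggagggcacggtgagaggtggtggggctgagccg
CCNB1: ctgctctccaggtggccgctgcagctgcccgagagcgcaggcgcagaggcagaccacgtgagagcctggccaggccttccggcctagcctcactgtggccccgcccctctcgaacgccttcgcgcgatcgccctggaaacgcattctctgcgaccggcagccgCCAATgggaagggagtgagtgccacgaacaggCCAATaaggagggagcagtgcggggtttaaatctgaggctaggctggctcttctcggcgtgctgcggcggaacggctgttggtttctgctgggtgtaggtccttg
CCNB2: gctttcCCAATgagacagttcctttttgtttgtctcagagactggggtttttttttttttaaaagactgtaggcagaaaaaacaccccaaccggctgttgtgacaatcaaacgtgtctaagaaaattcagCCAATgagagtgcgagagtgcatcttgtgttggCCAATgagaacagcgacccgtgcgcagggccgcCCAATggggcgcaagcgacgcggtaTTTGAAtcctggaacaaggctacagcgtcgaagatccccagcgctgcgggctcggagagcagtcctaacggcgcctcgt

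Among the genes that start the cycle, the cyclins D1 and E1 fell in I/R+Rk2, and E2F1 did not pass the test. CCND1, which encodes cyclin D1, had 548, 594, 633 and 605 CPM in the I/R+DMSO libraries and 514, 526, 507 and 507 CPM in the I/R+Rk2 libraries. The groups did not overlap, and the log2 fold change was -0.21 (standard error 0.0470, edgeR adjusted p = 0.0187), but the call was lost without I/R+Rk2 replicate 3 or 4, with an adjusted p of up to 0.0565. CCNE1 went down from 28.3 ± 3.07 to 20.7 ± 1.19 CPM (SD, n = 4 in both groups; log2 fold change -0.45, edgeR adjusted p = 0.0120), while its paralog CCNE2 was at 11.7 ± 1.57 and 11.5 ± 0.351 CPM. E2F1, an activator of the replication genes, had 112, 110, 103 and 104 CPM in I/R+DMSO and 107, 105, 104 and 99.7 CPM in I/R+Rk2. These overlapped, with a log2 fold change of -0.05 and an edgeR adjusted p of 0.469. E2F8, a repressor of the E2F family, fell from 23.7 ± 1.92 to 18.6 ± 0.769 CPM, a log2 fold change of -0.35 (edgeR adjusted p = 0.0143). CDC25A, the phosphatase that activates CDK2, fell from 200.4 ± 7.56 to 173.5 ± 8.55 CPM (log2 fold change -0.21, edgeR adjusted p = 0.0204), and its call was lost in 5 of the 8 fits that left out 1 library, those that lacked replicate 2 or 3 of I/R+DMSO, or one of replicates 2, 3 and 4 of I/R+Rk2, with an adjusted p of up to 0.0615. CDK2 itself, at 64.6 ± 10.3 and 55.0 ± 8.44 CPM, did not pass the test (edgeR adjusted p = 0.303).

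Of the loaders of the replicative helicase, CDC6 rose and CDT1 fell. CDC6, the ATPase that brings the helicase to the origin, had 148, 145, 149 and 143 CPM in I/R+DMSO and 176, 184, 186 and 178 CPM in I/R+Rk2. Every I/R+Rk2 library was above every I/R+DMSO library, the log2 fold change was 0.31 (standard error 0.0342, edgeR adjusted p = 0.00133), and the call held in each of the 8 fits that left out 1 library, with an adjusted p of up to 0.00711. CDT1, its partner in loading, had 69.0, 62.2, 63.3 and 60.3 CPM in I/R+DMSO and 50.5, 53.7, 50.5 and 49.7 CPM in I/R+Rk2. It fell by 0.32 on the log2 scale (standard error 0.0548, edgeR adjusted p = 0.00741) with groups that did not overlap. ORC1, a subunit of the origin recognition complex, was at 60.5 ± 1.67 and 55.8 ± 1.05 CPM, groups that did not overlap either, but its adjusted p of 0.0818 missed the threshold in edgeR.

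The helicase subunits, MCM2 to MCM7, all had fold changes below 0, and 4 of the 6 were called lower. MCM3 had 275, 277, 280 and 285 CPM in I/R+DMSO and 242, 236, 248 and 249 CPM in I/R+Rk2, with no overlap (log2 fold change -0.20, standard error 0.0331, edgeR adjusted p = 0.00694). MCM5 had 104, 101, 110 and 112 CPM against 90.9, 85.0, 86.5 and 83.8 CPM, a log2 fold change of -0.30 (standard error 0.0494, edgeR adjusted p = 0.00607). MCM7 fell from 523 ± 16.6 to 459 ± 17.8 CPM and MCM4 from 305 ± 9.80 to 271 ± 7.83 CPM (log2 fold changes -0.19 and -0.17, edgeR adjusted p = 0.0179 and 0.0192). The call of MCM7 was lost without I/R+Rk2 replicate 2 (adjusted p = 0.0531), and that of MCM4 when replicate 2 of I/R+DMSO or one of replicates 3 and 4 of I/R+Rk2 was left out (adjusted p up to 0.0538). MCM2 and MCM6 had log2 fold changes of -0.23 and -0.11 and edgeR adjusted p-values of 0.0969 and 0.112. GINS2, a subunit of the complex that joins the helicase when an origin fires, had 36.7, 32.6, 33.5 and 31.2 CPM in I/R+DMSO and 26.3, 23.7, 22.4 and 22.7 CPM in I/R+Rk2. Its log2 fold change of -0.49 (standard error 0.0753, edgeR adjusted p = 0.00458) was the lowest of the G1/S group. MCM10, which activates the loaded helicase, did not pass the test (log2 fold change -0.09, edgeR adjusted p = 0.239).

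Of the genes that serve the fork, the clamp PCNA and the deoxynucleotide enzymes TYMS and RRM2 fell, and RRM1 and UHRF1 did not pass the test. PCNA had 327, 301, 292 and 285 CPM in I/R+DMSO and 266, 250, 235 and 232 CPM in I/R+Rk2, so that the groups did not overlap (log2 fold change -0.29, standard error 0.0601, edgeR adjusted p = 0.0142). TYMS, thymidylate synthase, had 106, 106, 101 and 101 CPM in I/R+DMSO and 86.8, 88.0, 86.5 and 78.4 CPM in I/R+Rk2. It fell by 0.28 on the log2 scale (standard error 0.0487, edgeR adjusted p = 0.00740). The exons of TYMS overlap those of ENOSF1 on the opposite strand over 967 bases in GENCODE v29, and whether the counting used strand is not stated. RRM2, the small subunit of ribonucleotide reductase, fell from 138.5 ± 10.3 to 114 ± 2.43 CPM (log2 fold change -0.28, edgeR adjusted p = 0.0144), and 1077 bases of its exons are shared with AC007240.1 on the same strand, so its counts may include those of the other gene. RRM1, the large subunit, was at 105 ± 8.73 and 97.4 ± 4.53 CPM and did not pass the test (edgeR adjusted p = 0.297). UHRF1, which guides the copying of DNA methylation, had a log2 fold change of -0.12 and an edgeR adjusted p of 0.254.

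**Figure D2:**
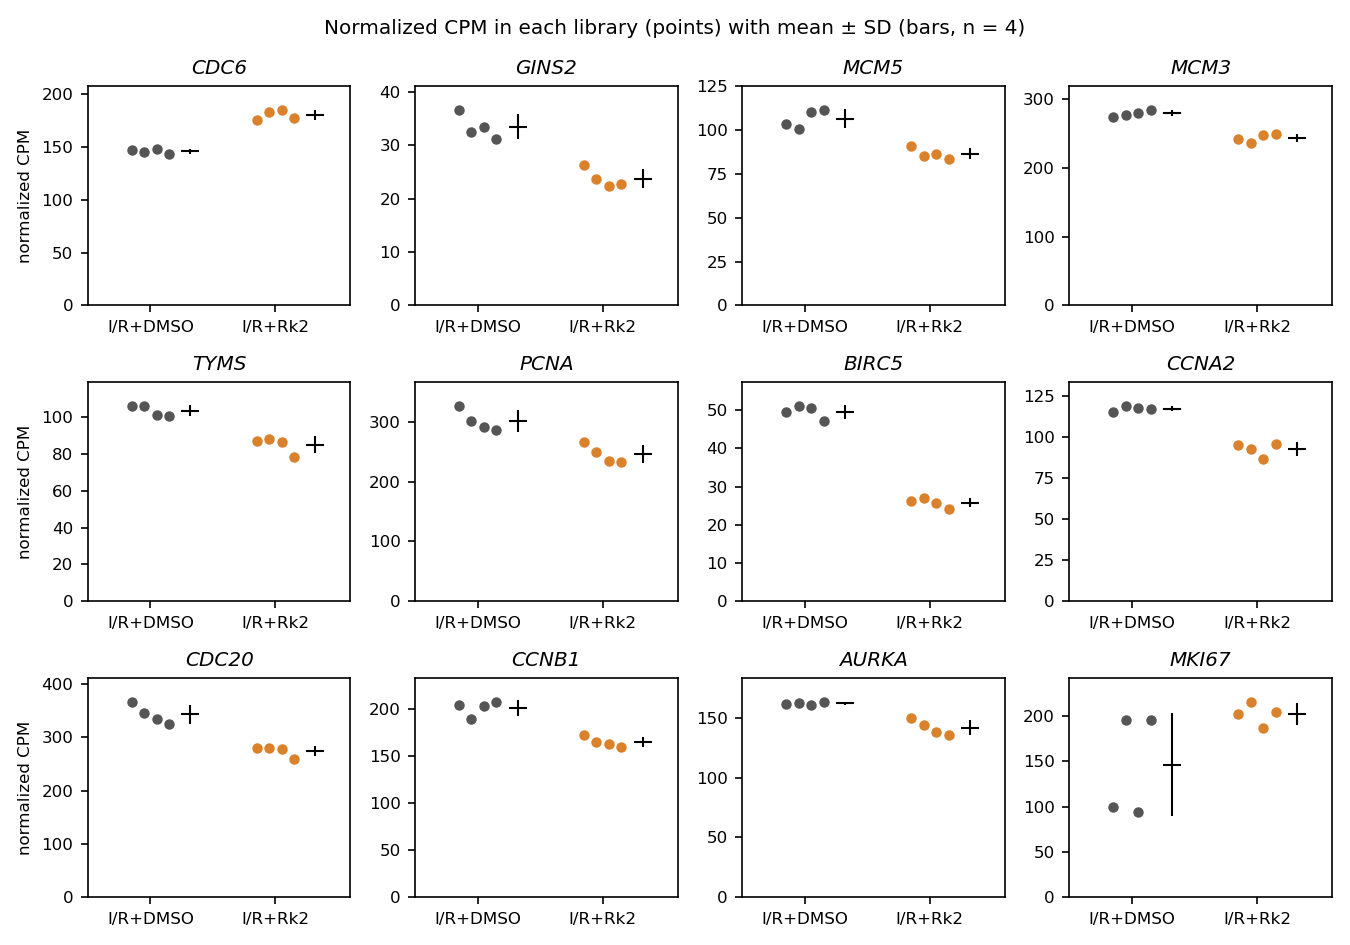
Normalized CPM (vertical axis from 0) of 12 of the genes in the 4 I/R+DMSO libraries (grey points) and the 4 I/R+Rk2 libraries (orange points), with the mean and SD beside them. In CDC6 the orange points are above the grey ones, in the next 10 genes they are below, and in MKI67 the grey points split into 2 near 100 and 2 near 196 CPM.

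In G2/M the cyclins CCNA2, CCNB1 and CCNB2 and the kinases PLK1 and AURKA fell, while CDK1, AURKB, BUB1 and BUB1B did not pass the test. BIRC5, which encodes survivin, a subunit of the chromosomal passenger complex and an inhibitor of apoptosis, had 49.4, 51.2, 50.5 and 47.2 CPM in I/R+DMSO and 26.2, 27.1, 25.7 and 24.2 CPM in I/R+Rk2. The groups were far apart, with a log2 fold change of -0.94 (standard error 0.0542, edgeR adjusted p = 6.648e-05), and it was the only one of the 42 genes called at more than 1.5-fold, where 0.581% of all genes tested were called lower and 2.46% higher at that size. The FPKM that the authors deposited for the same libraries did not show this. They were 22.8, 33.3, 37.1 and 29.6 in I/R+DMSO and 27.2, 28.4, 26.3 and 25.9 in I/R+Rk2, overlapping groups with an adjusted p of 0.469 in limma. Counts and FPKM together imply the gene length used for each library, and for BIRC5 it was 2125, 1533, 1342 and 1587 bases in I/R+DMSO and 970, 965, 987 and 949 bases in I/R+Rk2. The fall in counts of BIRC5 thus came with a shorter assigned length, and which of the 2 tables follows the level of its RNA was not tested.

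CCNA2, which encodes cyclin A2, had 115, 119, 117 and 117 CPM in I/R+DMSO and 95.5, 93.0, 86.7 and 95.7 CPM in I/R+Rk2. The fall of 0.34 on the log2 scale (standard error 0.0424, edgeR adjusted p = 0.00214) was also called in FPKM. CCNB1, cyclin B1, had 204, 190, 203 and 208 CPM against 173, 165, 163 and 159 CPM, again without overlap (log2 fold change -0.29, standard error 0.0430, edgeR adjusted p = 0.00441). CCNB2 had 75.0, 68.0, 68.1 and 77.0 CPM against 58.3, 57.3, 65.8 and 55.4 CPM, a log2 fold change of -0.28 (standard error 0.0701, edgeR adjusted p = 0.0273). CDK1, the kinase that these cyclins activate, had 138, 137, 126 and 134 CPM in I/R+DMSO and 128, 130, 116 and 131 CPM in I/R+Rk2. Its groups overlapped, and with a log2 fold change of -0.08 (edgeR adjusted p = 0.299, 95% interval -0.20 to 0.04) it did not pass the test.

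CDC20, the activator of the anaphase-promoting complex, had 367, 345, 333 and 325 CPM in I/R+DMSO and 279.5, 279.8, 276.9 and 259.6 CPM in I/R+Rk2, with no overlap and a log2 fold change of -0.32 (standard error 0.0477, edgeR adjusted p = 0.00412). AURKA, a kinase of the spindle poles, had 161, 162, 161 and 163 CPM against 149, 144, 138 and 136 CPM. Its log2 fold change was -0.19 (standard error 0.0396, edgeR adjusted p = 0.0144). PLK1 fell from 85.8 ± 7.33 to 71.7 ± 2.79 CPM (log2 fold change -0.26, edgeR adjusted p = 0.0297). TPX2, the activator of AURKA on the spindle, fell from 505 ± 22.2 to 450 ± 13.0 CPM (log2 fold change -0.17, edgeR adjusted p = 0.0310). The calls of PLK1 and TPX2 were both lost when counts were scaled by library size alone. AURKB, the kinase of the passenger complex, had groups that did not overlap, at 74.4 ± 7.59 and 62.8 ± 2.45 CPM, and an edgeR adjusted p of 0.0544. The count of 8 lower genes in G2/M became 5 without I/R+Rk2 replicate 2 and also 5 without I/R+Rk2 replicate 4, where lower calls over all genes dropped to 4.03% and 3.35%. CCNB2 was lost in 5 of the 8 fits that left out 1 library (replicates 1 and 4 of I/R+DMSO, replicates 1, 2 and 4 of I/R+Rk2), PLK1 in 5 (replicate 2 of I/R+DMSO and each I/R+Rk2 library) and TPX2 in 6 (replicates 2, 3 and 4 of either group), with adjusted p-values of up to 0.0718, 0.0789 and 0.0838.

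The G2/M genes with fold changes above 0 were MKI67, CENPE, CENPF, ASPM, TOP2A, KIF11 and BUB1B, and only CENPE among them was called. CENPE, a kinesin of the kinetochore, rose from 7.97 ± 0.262 to 10.7 ± 1.51 CPM (log2 fold change 0.43, standard error 0.107, edgeR adjusted p = 0.0284), a call lost in 6 of the 8 fits that left out 1 library, those without replicate 2, 3 or 4 of I/R+DMSO or replicate 1, 2 or 4 of I/R+Rk2, with an adjusted p of up to 0.0745. MKI67, the proliferation marker Ki-67, had 99.98 CPM in I/R+DMSO replicate 1, 196 in replicate 2, 94.0 in replicate 3 and 196 in replicate 4, and 202, 216, 187 and 205 CPM in I/R+Rk2. The I/R+DMSO libraries thus split into a low and a high pair, the high pair lay within the range of I/R+Rk2, and the log2 fold change of 0.47 (standard error 0.256) had an edgeR adjusted p of 0.241. The FPKM of MKI67 split in the same way, at 8.84, 14.9, 9.90 and 16.6 in I/R+DMSO. TOP2A, which untangles DNA, was at 228 ± 25.6 and 259.8 ± 6.40 CPM, CENPF at 41.1 ± 3.43 and 49.7 ± 5.34 CPM, and ASPM, a spindle pole protein, at 36.1 ± 2.64 and 42.2 ± 3.97 CPM, with edgeR adjusted p-values of 0.109, 0.0714 and 0.0943. The spindle motors KIF11 and KIF20A and the checkpoint kinases BUB1 and BUB1B had log2 fold changes of 0.15, -0.11, -0.03 and 0.03 and did not pass the test.

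Fold changes followed gene length in these data. Over all genes tested, Spearman's rho between the log2 fold change and the gene length behind the FPKM was 0.388, a description across genes, which are not independent replicates. That length was derived from the ratio of counts to FPKM, as a median per gene over these same libraries. It therefore shares data with the fold change, and lengths from an annotation were not used. Among the shortest 25% of genes, up to 1902 bases, the median log2 fold change was -0.13 and 11% were called lower and 2.26% higher. Among the longest 25%, from 4568 bases, the median was 0.15, with 3.10% lower and 21.6% higher. Of the 42 genes, the 8 above 0 had a median length of 6206 bases and the 34 below 0 one of 3134 bases. After a correction for gene length, 17 of the 23 G1/S genes were called lower, with ORC1, MCM2, MCM6 and UHRF1 added to the 13, and CDC6 was still called higher, at a log2 fold change of 0.23 (edgeR adjusted p = 0.00637). In G2/M the correction left 6 genes lower, without CCNB2 and PLK1, the median was -0.07, and CENPE went to an edgeR adjusted p of 0.111. With GC content corrected as well, 16 G1/S and 7 G2/M genes were lower, with medians of -0.20 and -0.14. Over all genes tested, 8.61% were called lower and 8.85% higher with the length correction, and 8.03% and 7.66% with GC content as well. After the correction TOP2A, CENPF and KIF11 had log2 fold changes of 0.03, 0.03 and 0.01, and ASPM one of -0.06, and with GC content corrected as well all 4 were below 0. MKI67 and CENPE stayed above 0 under both corrections, and neither was called there. BIRC5 was still called lower (log2 fold change -0.81, edgeR adjusted p = 0.000201). For BIRC5 this decides nothing about its assigned length, which averaged 1647 bases in I/R+DMSO and 968 in I/R+Rk2. The correction used a single length per gene and could not remove a difference between the groups. What sets the relation with length was not tested.

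**Figure D3:**
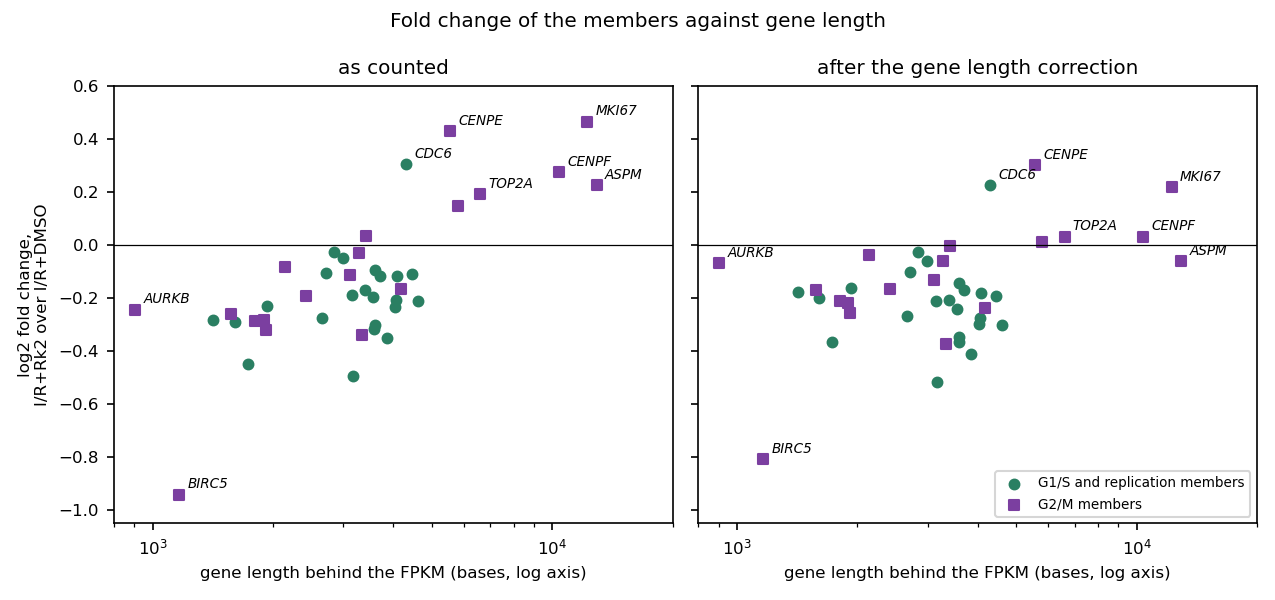
Log2 fold change of the 42 genes (vertical axis, I/R+Rk2 over I/R+DMSO) against the gene length behind the FPKM (horizontal log axis, in bases), as counted (left) and after the gene length correction (right), with circles for the G1/S and squares for the G2/M genes. On the left the longest G2/M genes lie above 0, and on the right TOP2A and CENPF lie at 0.03 and ASPM at -0.06, while CDC6 stays above 0 and most G1/S genes lie below it.

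Summed over the 23 G1/S genes, the level was 3658, 3834, 3774 and 3696 CPM in the I/R+DMSO libraries and 3371, 3325, 3274 and 3235 CPM in the I/R+Rk2 libraries. The sums over the 19 G2/M genes were 2473, 2553, 2431 and 2669 CPM against 2388, 2383, 2337 and 2348 CPM. Neither sum overlapped between the groups. The median deviation of the G1/S genes from their mean over the 8 libraries lay between 0.04 and 0.13 on the log2 scale in the I/R+DMSO libraries and between -0.12 and -0.07 in the I/R+Rk2 libraries. For the G2/M genes the same deviation ran from -0.0043 in I/R+DMSO replicate 1 to 0.12 in replicate 4, and from -0.09 to -0.02 in I/R+Rk2. By this median, I/R+DMSO replicate 1 was the lowest of its group in both phases.

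**Figure D4:**
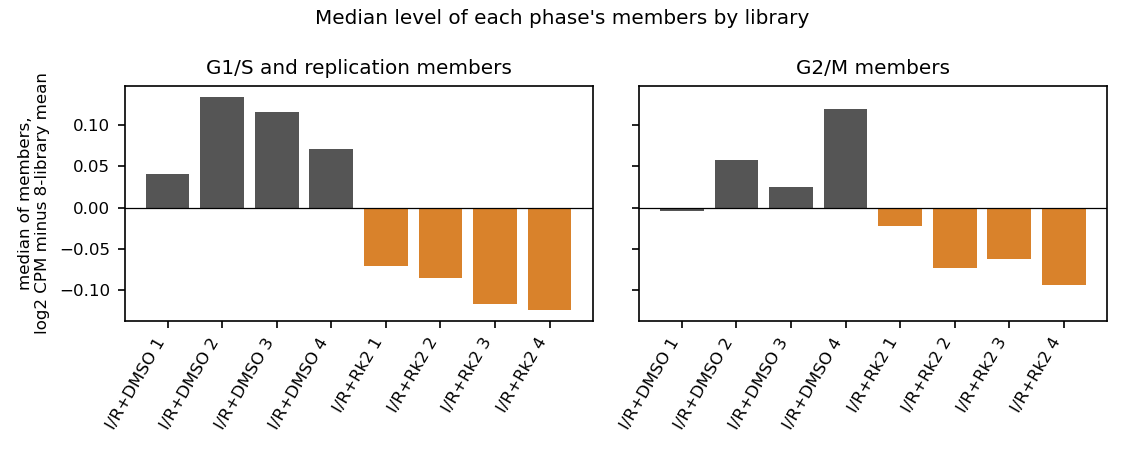
Median over the genes of each phase of the log2 CPM minus its mean over the 8 libraries (vertical axis), for the 4 I/R+DMSO libraries (grey bars) and the 4 I/R+Rk2 libraries (orange bars). In the G1/S panel the grey bars reach from 0.04 to 0.13 and the orange bars from -0.12 to -0.07, and in the G2/M panel the grey bar of replicate 1 lies just below 0.

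Per length, PCNA had the highest level of the 42 genes in both groups, at 184.9 ± 9.29 FPKM in I/R+DMSO and 154.5 ± 8.69 in I/R+Rk2 (SD, n = 4). CDC20 and MCM7 followed, at 174.9 ± 8.48 and 163.4 ± 4.92 FPKM in I/R+DMSO, and in I/R+Rk2 at 143.8 ± 4.91 and 147.2 ± 5.70 FPKM, and the libraries of neighbours in this order overlapped in both groups. CENPE had the lowest level in both groups, at 1.14 ± 0.340 and 2.10 ± 0.442 FPKM, and ASPM came next with 2.76 ± 0.211 and 3.70 ± 0.5852 FPKM. The length implied by counts and FPKM for CENPE averaged 7302 bases in I/R+DMSO and 5222 bases in I/R+Rk2. The rise of CENPE in FPKM thus came with a shorter assigned length. In the FPKM table, limma on log2(FPKM + 1) called 4 G1/S genes lower (CCNE1, GINS2, PCNA and TYMS) and 3 G2/M genes lower (CCNA2, CCNB1 and CDC20), with CDC6 and CENPE higher (adjusted p = 0.00588 and 0.0486 in limma). There 2.62% of all genes tested were called lower and 6.85% higher. For CDT1 the FPKM were 19.2, 29.3, 17.0 and 15.9 in I/R+DMSO and 21.9, 14.8, 23.9 and 13.7 in I/R+Rk2, and the length implied by counts and FPKM ranged from 2116 to 3769 bases among libraries. The other genes called lower in counts and not in FPKM were CCND1, E2F8, CDC25A, MCM3, MCM4, MCM5, MCM7, RRM2, CCNB2, PLK1, AURKA, BIRC5 and TPX2. All of them had log2 fold changes below 0 in both tables. For PLK1 the implied length ranged from 1236 to 2510 bases among libraries. E2F8 had a log2 fold change of -0.07 in FPKM (adjusted p = 0.696 in limma). Its implied length averaged 3913 bases in I/R+DMSO and 3359 bases in I/R+Rk2.

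Around these genes, 180 further genes of the cell cycle were grouped into 11 lists, and 179 of them were tested. Of these 31 were called lower (17.3%) and 18 higher (10.1%), where 7.24% and 11% of all genes tested were called in these directions, so that the share called higher was near that of all genes. Their median log2 fold change was -0.07. The 31 became 17 without I/R+DMSO replicate 2, 18 without I/R+Rk2 replicate 2, and 14 without I/R+Rk2 replicate 3 or 4, and the 18 became 11 without I/R+DMSO replicate 2, 10 without I/R+Rk2 replicate 3 and 9 without I/R+Rk2 replicate 4. Lower calls over all genes also dropped in these fits, to 4.61% without I/R+DMSO replicate 2 and to 4.03%, 4.14% and 3.35% without I/R+Rk2 replicate 2, 3 and 4, and higher calls to between 6.72% and 7.83%. CDKN1A, the p53-induced inhibitor p21, had 30.2, 28.3, 30.9 and 29.7 CPM in I/R+DMSO and 27.95, 32.1, 29.2 and 28.3 CPM in I/R+Rk2, with a log2 fold change of -0.02 (edgeR adjusted p = 0.875). Of the 11 CDK inhibitors and pocket proteins, 3 rose (27.3%) and 1 fell (9.09%). RB1, the retinoblastoma protein, went from 46.6 ± 6.54 to 64.3 ± 2.45 CPM (log2 fold change 0.46, edgeR adjusted p = 0.0131, 0.0552 with gene length and GC content corrected), CDKN1B, or p27, from 55.2 ± 3.46 to 65.2 ± 1.88 CPM (0.24 on the log2 scale) and CDKN2B, or p15, from 173 ± 5.88 to 198 ± 8.02 CPM (0.19), a call lost with the gene length correction (edgeR adjusted p = 0.0540). The call of CDKN1B was lost with the replicate block and without replicate 1, 3 or 4 of I/R+Rk2 (edgeR adjusted p up to 0.0612 in these last). CDKN2C, or p18, fell from 2.15 ± 0.229 to 1.38 ± 0.205 CPM (edgeR adjusted p = 0.0317), on 20 to 51 counts per library. Its call was lost with DESeq2 (adjusted p = 0.0671), in FPKM, with gene length and GC content corrected, and in 6 of the 8 fits that left out 1 library, all but those without replicate 2 of I/R+DMSO or replicate 1 of I/R+Rk2 (adjusted p up to 0.0775). Of the 15 E2F, DREAM and MuvB factors, MYBL2, a partner of MuvB in activating G2/M genes, and E2F2 fell (log2 fold changes -0.21 and -0.42, edgeR adjusted p = 0.00809 and 0.0203), 13.3% of the list, and the call of E2F2 was lost in FPKM and in the fits without replicate 2, 3 or 4 of I/R+Rk2 (adjusted p up to 0.0583). In the same list 3 genes rose (20%), among them LIN54, the MuvB subunit that binds the CHR, and RBBP4 (log2 fold changes 0.77 and 0.18), whose calls were lost with the gene length correction (edgeR adjusted p = 0.0541 and 0.0551). CCNF fell and CDK6, a partner of cyclin D, rose among the 15 other cyclins, CDKs and regulators tested, 1 gene or 6.67% in each direction and no more than the shares of all genes (log2 fold changes -0.36 and 0.33), and with the length correction CDK6, whose transcript is long, went to 0.06, and to -0.04 with GC content corrected as well.

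In the replication lists most genes did not pass the test, and the shares below stand against 7.24% lower and 11% higher over all genes tested. Of the 22 other licensing and firing factors, 4 fell (18.2%). These were TIMELESS, which protects the fork (log2 fold change -0.29, edgeR adjusted p = 0.00887), MCMBP, which binds MCM subunits, and GINS1 and GINS3, partners of GINS2 (log2 fold changes -0.19, -0.26 and -0.28). Of the 8 fits that left out 1 library, MCMBP was called in 3, GINS1 in 2 and GINS3 in 3. Their edgeR adjusted p-values there reached 0.062, 0.0888 and 0.0785, and MCMBP, GINS1 and GINS3 were not called in FPKM. The 27 polymerase and fork genes held 7 that fell (25.9%) and 1 that rose (3.70%). The histone chaperone ASF1B, RPA2 of the single-strand binding protein and POLA2 of the priming polymerase fell by 0.29, 0.30 and 0.28 on the log2 scale. Of the exons of POLA2, 2012 bases are shared with AP000944.2 on the same strand, so its counts may include those of the other gene. RFC1, the large subunit of the clamp loader, rose by 0.37. The call of RFC1 was lost with gene length and GC content corrected (edgeR adjusted p = 0.0696) and without I/R+Rk2 replicate 3 (0.0505). Of the 9 other enzymes of deoxynucleotide supply, DUT and CTPS1 fell (22.2%) and 1 gene rose (11.1%), a share near that of all genes. RRM2B, the p53-induced subunit of ribonucleotide reductase, rose from 17.8 ± 1.04 to 22.9 ± 0.857 CPM. The call of RRM2B was lost with gene length and GC content corrected (edgeR adjusted p = 0.157) and in FPKM, and that of DUT with the gene length correction (edgeR adjusted p = 0.0961). FPKM and counts differed for CTPS1, which had a log2 fold change of -0.15 in counts and 0.09 in FPKM. Of the 12 checkpoint genes 1 fell (8.33%), again near the share of all genes, and 2 rose (16.7%). The damage kinases ATM and ATR rose, from 12.9 ± 3.90 to 25.3 ± 3.42 CPM and from 27.1 ± 3.74 to 37.0 ± 2.92 CPM (log2 fold changes 0.97 and 0.45, edgeR adjusted p = 0.0202 and 0.0218). ATM lost its call in the fits without replicate 3 of I/R+DMSO or replicate 3 or 4 of I/R+Rk2 (adjusted p up to 0.0579). ATR lost it in 5 of these 8 fits (replicates 2 and 3 of I/R+DMSO, replicates 2, 3 and 4 of I/R+Rk2; adjusted p up to 0.0613), with gene length and GC content corrected (0.141) and in FPKM (0.470 in limma). ATRIP, the partner of ATR, fell by 0.45 on the log2 scale, and 1515 bases of its exons are shared with TREX1 on the same strand.

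In the mitotic lists, too, most genes did not pass the test, and more of the called genes fell than rose except among cohesin and condensin. The shares are again to be set against 7.24% lower and 11% higher over all genes tested. Of 17 spindle checkpoint and kinetochore genes 2 fell (11.8%) and 1 rose (5.88%), which is near the shares of all genes. CDCA8, a further subunit of the passenger complex, and BUB3 fell, and SGO2, which guards cohesin at centromeres, rose (log2 fold changes -0.25, -0.18 and 0.33), and the calls of BUB3 and SGO2 were lost with the gene length correction (edgeR adjusted p = 0.0912 and 0.0552). The 20 mitotic kinesins and spindle and cytokinesis genes included 6 that fell (30%) and 1 that rose (5%), with TACC3, KIF18B, KIFC1 and KIF2C at log2 fold changes of -0.29, -0.28, -0.27 and -0.22. Of 18 genes of the anaphase-promoting complex and mitotic exit 3 fell (16.7%) and 1 rose (5.56%). The ubiquitin-conjugating enzymes UBE2S and UBE2C and the activator FZR1 fell (log2 fold changes -0.29, -0.26 and -0.18), and the subunit CDC27 rose (0.25). Of the 8 fits that left out 1 library, UBE2S was called in 4, UBE2C in 2, FZR1 in 1 and CDC27 in 2. CDC27 was also not called with gene length and GC content corrected. FZR1 was at 0.03 in FPKM, and UBE2C lost its call with the gene length correction (edgeR adjusted p = 0.422). Of 13 cohesin and condensin genes, 4 rose (30.8%) and 2 fell (15.4%). SMC2 and SMC4, the motor subunits of condensin, went from 23.8 ± 1.59 to 30.9 ± 1.24 CPM and from 40.1 ± 4.03 to 56.4 ± 4.28 CPM (edgeR adjusted p = 0.00727 and 0.00744), and SMC3 and STAG1 of cohesin rose by 0.33 and 0.28. The calls of SMC3 and STAG1 were lost with the gene length correction, that of SMC2 with GC content corrected as well (edgeR adjusted p = 0.395), and those of SMC2 and SMC4 in FPKM (limma adjusted p = 0.0680 and 0.114). Exons of SMC4 overlap those of TRIM59 and IFT80 on the opposite strand over 1561 and 607 bases. Those of STAG1 overlap PCCB over 1664 bases, also on the opposite strand. Of the 39 genes named from the 11 lists as called, 20 were called in each of the 8 fits that left out 1 library. These were RB1, MYBL2, CCNF, CDK6, TIMELESS, ASF1B, RPA2, POLA2, RRM2B, ATRIP, CDCA8, SGO2, TACC3, KIF18B, KIFC1, KIF2C, SMC2, SMC4, SMC3 and STAG1. In FPKM 14 of the 39 were still called. Of the named genes that rose, CDKN1B, ATM and SMC4 kept their calls with gene length and GC content corrected. CDKN1B and ATM lost theirs in some fits that left out 1 library, and SMC4 lost its call in FPKM.

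**Figure D5:**
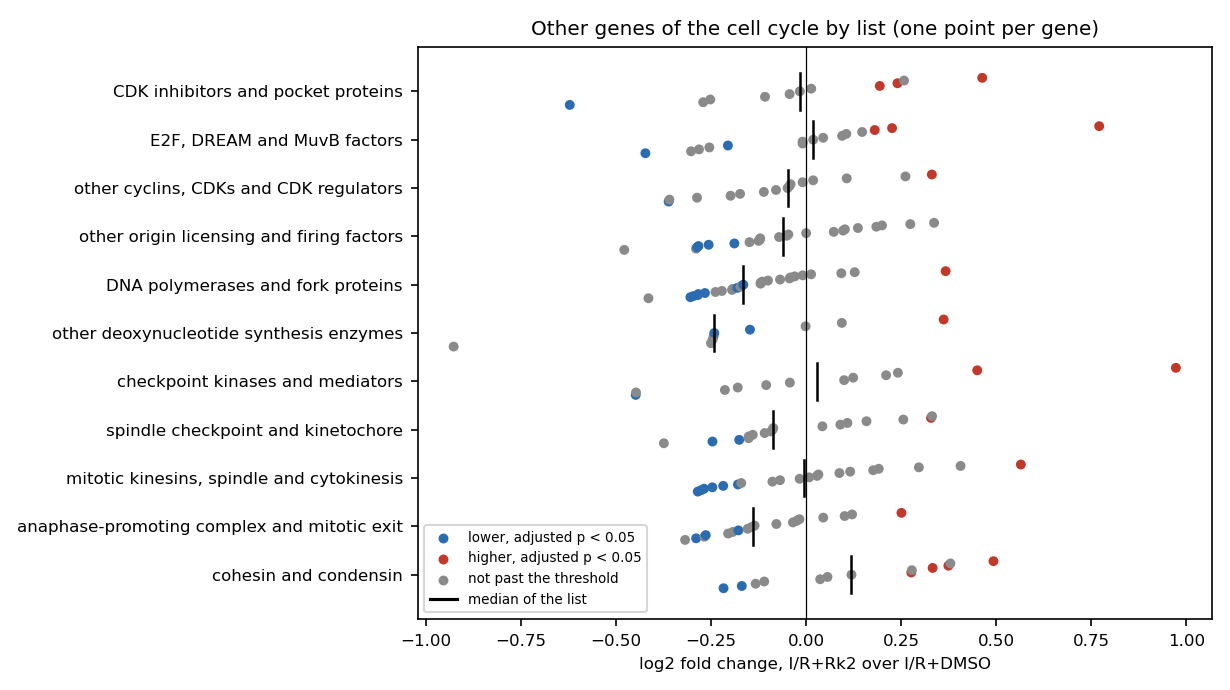
Log2 fold change (horizontal axis, I/R+Rk2 over I/R+DMSO) of each tested gene of the 11 other cell cycle lists, 1 point per gene, with the median of each list as a black bar; blue and red points were called lower and higher by edgeR, and grey points were not past the threshold. The medians run from -0.24 in the deoxynucleotide enzymes to 0.12 in cohesin and condensin, and ATM lies farthest to the right at 0.97.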

How the data were processed

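RNA of 4 I/R+DMSO and 4 I/R+Rk2 HuH7 samples was sequenced, and reads were aligned to hg38 with HISAT2 2.2.1 after FastQC 0.11.5, with StringTie 1.3.3 for abundance, per the submitters' processing notes. The counting tool, its annotation and its use of strand are not given in the sources used here. Further named genes have exons that overlap another gene on the opposite strand. Among them are CCNE2 (1629 bases with INTS8), MCM2 (1113 with AC023593.1), RBBP4 (1706 with SYNC) and ATR (2048 with AC109992.1). The authors deposited raw counts per gene and FPKM, and columns of their own comparison, which were not used. All per-sample columns were mapped to a sample. Left out were 22 rows of counts whose symbols had turned into dates (0.111% of the total). No replicates were identical, and replicates of a group differed beyond sampling noise.

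A gene was kept if 4 or more libraries had 10 counts or more of it. Counts were normalized by TMM and tested with edgeR 4.0.16 (R 4.3.3), using a robust quasi-likelihood fit on condition alone and Benjamini-Hochberg adjustment over all genes. The biological coefficient of variation was 17.1%. FPKM were tested with limma 3.58.1 on log2(FPKM + 1), for genes with a mean of at least 0.5. Alternatives were DESeq2 1.42.0, upper-quartile and library size scaling, voom with sample weights, no filter, at least 50 counts in every library, a pseudocount of 0.1, a replicate block, loess offsets for gene length (from the ratio of counts to FPKM), a fold above 1.5, and leaving out each library. A correction for gene length and GC content together was chosen after seeing the data. The fits were tested on simulated data.

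The members, the lists and the tests were chosen with earlier results of these data known. All 42 members are accounted for, per-library values are given for the 6 genes of smallest p-value in each phase and for genes of a stated role, and from each other list up to 4 called genes with the smallest p-value are named. The lists were described by counts and medians, without a set test. Endothelial and stromal markers, also searched, had 1 and 2 of 5 genes tested, with at most 313 and 109 counts per library.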

Additional observations from a re-analysis of the deposited data

Results flagged for a closer look

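Among 164 groups of 4 libraries (82 genes in 2 groups), 9 held a library whose distance from its nearest neighbor was a larger share of the range of the group than Dixon's 95% critical value for 4 samples allows, and chance gives about 1 in 20. Of the 42 genes, MCM2 stood out in I/R+Rk2 replicate 3 with 171.3 CPM, where the next library had 150.8 CPM. RRM2 was low in I/R+DMSO replicate 1, at 123.2 CPM against 142.4 CPM in the next. In I/R+Rk2 replicate 4, TYMS was at 78.43 CPM against 86.48 CPM and CDC20 at 259.6 CPM against 276.9 CPM. Among the other lists, RB1 was high in I/R+DMSO replicate 4, at 56.4 CPM against 44.09 CPM. MCMBP was low in I/R+Rk2 replicate 1, at 119.5 CPM against 129.6 CPM, and SGO2 high in I/R+Rk2 replicate 2, at 14.31 CPM against 12.6 CPM. BUB3 was high in I/R+Rk2 replicate 3, at 192.8 CPM against 178 CPM, and UBE2C low in I/R+DMSO replicate 3, at 157.5 CPM against 174.8 CPM.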

How the results depend on the processing

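All 23 called members kept their direction under each of the 13 alternatives and the 8 fits without 1 library, and CDC6, PCNA, CCNA2 and CDC20 also stayed past the threshold in all of them other than a fold above 1.5. The 13 lower G1/S genes became 4 in limma on log2(FPKM + 1), 4 with a pseudocount of 0.1, 2 on FPKM without a filter and 0 at a fold above 1.5, where CDC6 was lost as well (0 higher). The 8 lower G2/M genes became 3, 3 and 3 in the same FPKM fits and 1 at a fold above 1.5. The 1 higher G2/M gene became 2 with DESeq2 and 0 on FPKM without a filter, with the gene length correction, with the replicate block and gene length correction, with gene length and GC corrected and at a fold above 1.5. The G1/S median log2 fold change was -0.1499, -0.1508 and -0.1499 in the 3 FPKM fits, and the G2/M median -0.04926, -0.05 and -0.04926, -0.06745 with the gene length correction and -0.06793 with the block and length correction. In the other lists the 31 lower genes became 8, 8 and 6 in the FPKM fits and 20 with the block and length correction, and the 18 higher genes 11, 11 and 9 in the FPKM fits, 4 with the block and length correction and 6 with gene length and GC corrected. Over all genes, 311 were lower and 812 higher in limma on log2(FPKM + 1), 1037 and 989 with gene length and GC corrected, and 1111 and 1143 with length alone. The cause of these shifts was not tested.

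Leaving out 1 library gave 10 to 15 lower G1/S genes with 1 to 1 higher and medians of -0.2138 to -0.1817, 5 to 7 lower G2/M genes with 0 to 2 higher and medians of -0.1489 to -0.09016, and 14 to 29 lower and 9 to 20 higher genes in the other lists.

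Libraries with the same replicate number deviated from their group means with correlations of 0.016, -0.0095, 0.0382 and 0.0845, and not every library correlated best with its own number, so they share only a number. With the replicate block 10 G1/S and 5 G2/M genes were lower, and 4 G2/M genes with the block and gene length correction.

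The log2 fold changes that reversed were as follows. CCNE2 had a log2 fold change of 0.00687 with library size alone, 0.01308, 0.01588 and 0.01308 in the 3 FPKM fits, and, when 1 library was left out, values from -0.08664 to 0.04257 (0.02186 and 0.04257 without I/R+DMSO replicate 3 and 4). BUB1 had 0.0009212 with library size alone and 0.037, 0.03813 and 0.037 in the FPKM fits. KIF20A had 0.09651, 0.09973 and 0.09651, CTPS1 0.08655, 0.08739 and 0.08655, and FZR1 0.02663, 0.02917 and 0.02663 in the FPKM fits. With the gene length correction BUB1B had -0.003668 and ASPM -0.05982, and with the block as well -0.005613 and -0.06023. With gene length and GC corrected, E2F1 had 0.02778, TOP2A -0.06916, BUB1B -0.04561, KIF11 -0.09977, CENPF -0.0515, ASPM -0.1944, CDK6 -0.03994 and CDKN1A 0.05106. CDKN1A had 0.01479 with library size alone, and from -0.06191 to 0.006062 when 1 library was left out (0.0009449 and 0.006062 without I/R+DMSO replicate 3 and I/R+Rk2 replicate 1).

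Intervals cover the spread between the 4 libraries of a group only. Depth was lowest behind CENPE among the 42 genes, at 7.97 and 10.7 CPM.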
